A study of Mus musculus with 24 samples.

Results

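Oxidative phosphorylation subunit genes are the nuclear genes that encode the protein parts of the 4 respiratory chain complexes, of cytochrome c and of the ATP synthase (complex V). They were chosen by gene symbol alone: Nduf genes for complex I, Sdh for complex II, Uqcr and Cyc1 for complex III, Cycs for cytochrome c, Cox4 to Cox8 for complex IV and Atp5 for complex V. Of 83 genes that matched, 76 reached a mean log2 value of at least 4 in striatum or in cerebellum, out of 10766 genes with a symbol of their own that did so. They fell into 33 genes of complex I, 4 of complex II, 9 of complex III, 1 for cytochrome c, 12 of complex IV and 17 of complex V.

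Messenger RNA was measured on Affymetrix MG430 2.0 arrays in 4 groups of 6 arrays: striatum of mice homozygous for the huntingtin knock-in allele HdhQ111, striatum of wild-type mice (Hdh+/Hdh+, given as Q7/Q7), cerebellum of HdhQ111/HdhQ111 mice and cerebellum of wild-type mice. All mice were 3 to 10 weeks old, and the labels give the age only as that range. The allele carries an expanded CAG repeat, named for the length of the glutamine stretch it encodes, in the mouse gene itself, so that every cell that uses the gene can make the expanded protein, and both copies were expanded. Since the labels call the replicates biological but name no mice, each p-value reflects only how far these samples differ among themselves, and part of that may be technical.

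Complexes I to IV pass electrons from NADH and succinate to oxygen, and complexes I, III and IV pump protons across the inner mitochondrial membrane while they do so. Complex V lets the protons back and makes ATP, which neurons spend mainly on restoring ion gradients after synaptic and electrical activity. Most subunits come from nuclear genes, and a small set of core subunits of complexes I, III, IV and V comes from mitochondrial DNA. In Huntington's disease, enzyme activity of complex II and other complexes is known to be low in the human caudate late in the disease, and complex II poisons injure the striatum in animals.

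The tissue labels were borne out by their markers. All 12 measured markers of striatal projection neurons were higher in striatum, and all 9 of cerebellar granule neurons were lower there, in both genotypes. Between genotypes the striatum samples differed in markers of other cells. The mean over 9 cerebral cortex neuron genes ran from 6.76 to 7.78 log2 in Q111 striatum and from 6.46 to 7.32 in wild-type striatum, with 9 of 9 higher in Q111, of which Neurod6 and Fezf2 passed the test. The mean over 5 of 8 endothelial and mural cell genes ran from 6.63 to 6.88 in Q111 and from 6.91 to 7.29 in wild type, that over 9 oligodendrocyte genes from 10.91 to 11.53 in Q111 and from 11.39 to 11.62 in wild type, and that over 8 microglia genes from 7.84 to 8.08 in Q111 and from 7.54 to 7.92 in wild type. Among these lists, 2 of 5 endothelial and mural genes passed the test as lower and none as higher, and none of the oligodendrocyte genes passed. Of the microglia genes 3 passed as higher, the complement genes C1qa, C1qb and C1qc, and 1 as lower, Aif1. In all, 4 of the 8 microglia genes had a lower mean in Q111, so the higher list mean did not hold across the list. Of the 12 striatal projection neuron genes 9 had a lower mean in Q111 striatum and none passed. The part of these cell types in the subunit gene values was not tested. In whole tissue, fewer cells of a type and less RNA per cell cannot be told apart.

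The upstream sequences of 4 genes that fell in Q111 striatum are shown because they differ in the letters that factors known for controlling respiratory chain genes bind. They are the 250 bases before the transcription start in RefSeq (mouse build GRCm38.p6), 5′ to 3′ on the gene's own strand, with capitals for the NRF1 letters GCGCANGCG or the ETS family letters CCGGAAG on either strand.
Atp5g1, chr11:96075632-96075881, minus strand: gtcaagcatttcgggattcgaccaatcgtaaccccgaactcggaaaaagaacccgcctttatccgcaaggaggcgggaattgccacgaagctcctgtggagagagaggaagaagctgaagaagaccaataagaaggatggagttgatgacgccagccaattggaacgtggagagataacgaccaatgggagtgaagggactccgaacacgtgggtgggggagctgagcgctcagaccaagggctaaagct
Cox5b, chr1:36691237-36691486, plus strand: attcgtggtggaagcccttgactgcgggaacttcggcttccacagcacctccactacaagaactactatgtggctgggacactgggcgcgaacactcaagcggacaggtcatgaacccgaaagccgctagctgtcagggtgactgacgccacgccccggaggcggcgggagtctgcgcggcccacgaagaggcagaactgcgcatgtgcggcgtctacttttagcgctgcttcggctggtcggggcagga
Atp5g2, chr15:102671048-102671297, minus strand: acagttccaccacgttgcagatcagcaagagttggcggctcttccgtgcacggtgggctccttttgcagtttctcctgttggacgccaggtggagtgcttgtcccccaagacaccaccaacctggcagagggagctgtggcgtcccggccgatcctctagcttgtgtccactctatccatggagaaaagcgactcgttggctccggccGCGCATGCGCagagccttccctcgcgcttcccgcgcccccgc
Ndufs3, chr2:90904722-90904971, minus strand: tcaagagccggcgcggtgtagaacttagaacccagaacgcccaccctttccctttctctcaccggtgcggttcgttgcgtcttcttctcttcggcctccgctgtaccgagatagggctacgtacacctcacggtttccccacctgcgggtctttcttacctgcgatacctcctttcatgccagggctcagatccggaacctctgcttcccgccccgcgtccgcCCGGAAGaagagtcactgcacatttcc
Atp5g2 held the NRF1 letters on both strands at overlapping places, Ndufs3 held the ETS letters, and the stretches of Atp5g1 and Cox5b held neither. A second ETS match of Ndufs3 lay just past the start, and Ndufs4, the fifth gene that fell, held only the YY1 letters AANATGGC, past its start.

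Across the windows from 250 bases before to 50 after the start, 64 of the 76 subunit genes had an entry. The NRF1 letters stood in 28.1% of these 64, in 7.0% of all 27025 genes of the table and in 15.8% of the 8746 measured genes with an entry. ETS letters stood in 26.6% of the subunit genes, 9.9% of all genes and 19.5% of measured genes, and the YY1 letters in 23.4%, 7.0% and 10.2%, all counted on both strands. Subunit gene windows averaged 58.0% G and C against 53.6% over all genes, with a median of 19 CpG pairs against 7, so these motifs, which are themselves rich in G and C in 2 of 3 cases, were counted in windows of another base makeup. A match is only a run of letters and does not show that a factor binds.

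Q111 and wild-type striatum were compared first, striatum being the tissue that Huntington's disease affects most. Of the 76 subunit genes, 5 fell in Q111 striatum and none rose at an adjusted p of 0.05 (limma's moderated test, Benjamini-Hochberg over all 20738 probe sets kept). These 5 are 6.58% of the subunit genes, beside 2.03% of all probe sets called lower, and the count of 0 higher stands beside 0.834% of all probe sets called higher. At an unadjusted p under 0.05, 24 subunit genes and 3933 probe sets differed. Of the subunit genes 63, or 82.9%, had a lower mean in Q111, against 55.4% of all probe sets, and the median log2 difference was -0.08 for the subunit genes and -0.02 for all probe sets. The differences were small, from -0.34 to 0.24 log2. With each array centred on its median, 44 of the 76 were lower and 3 fell, and with quantile normalization 57 were lower and 4 fell. Of all 20738 probe sets, 247 were called lower and 331 higher with median centring, and 333 and 311 with quantile normalization. The medians over all probe sets were then 0.028 and 0.004.

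**Figure D1:**
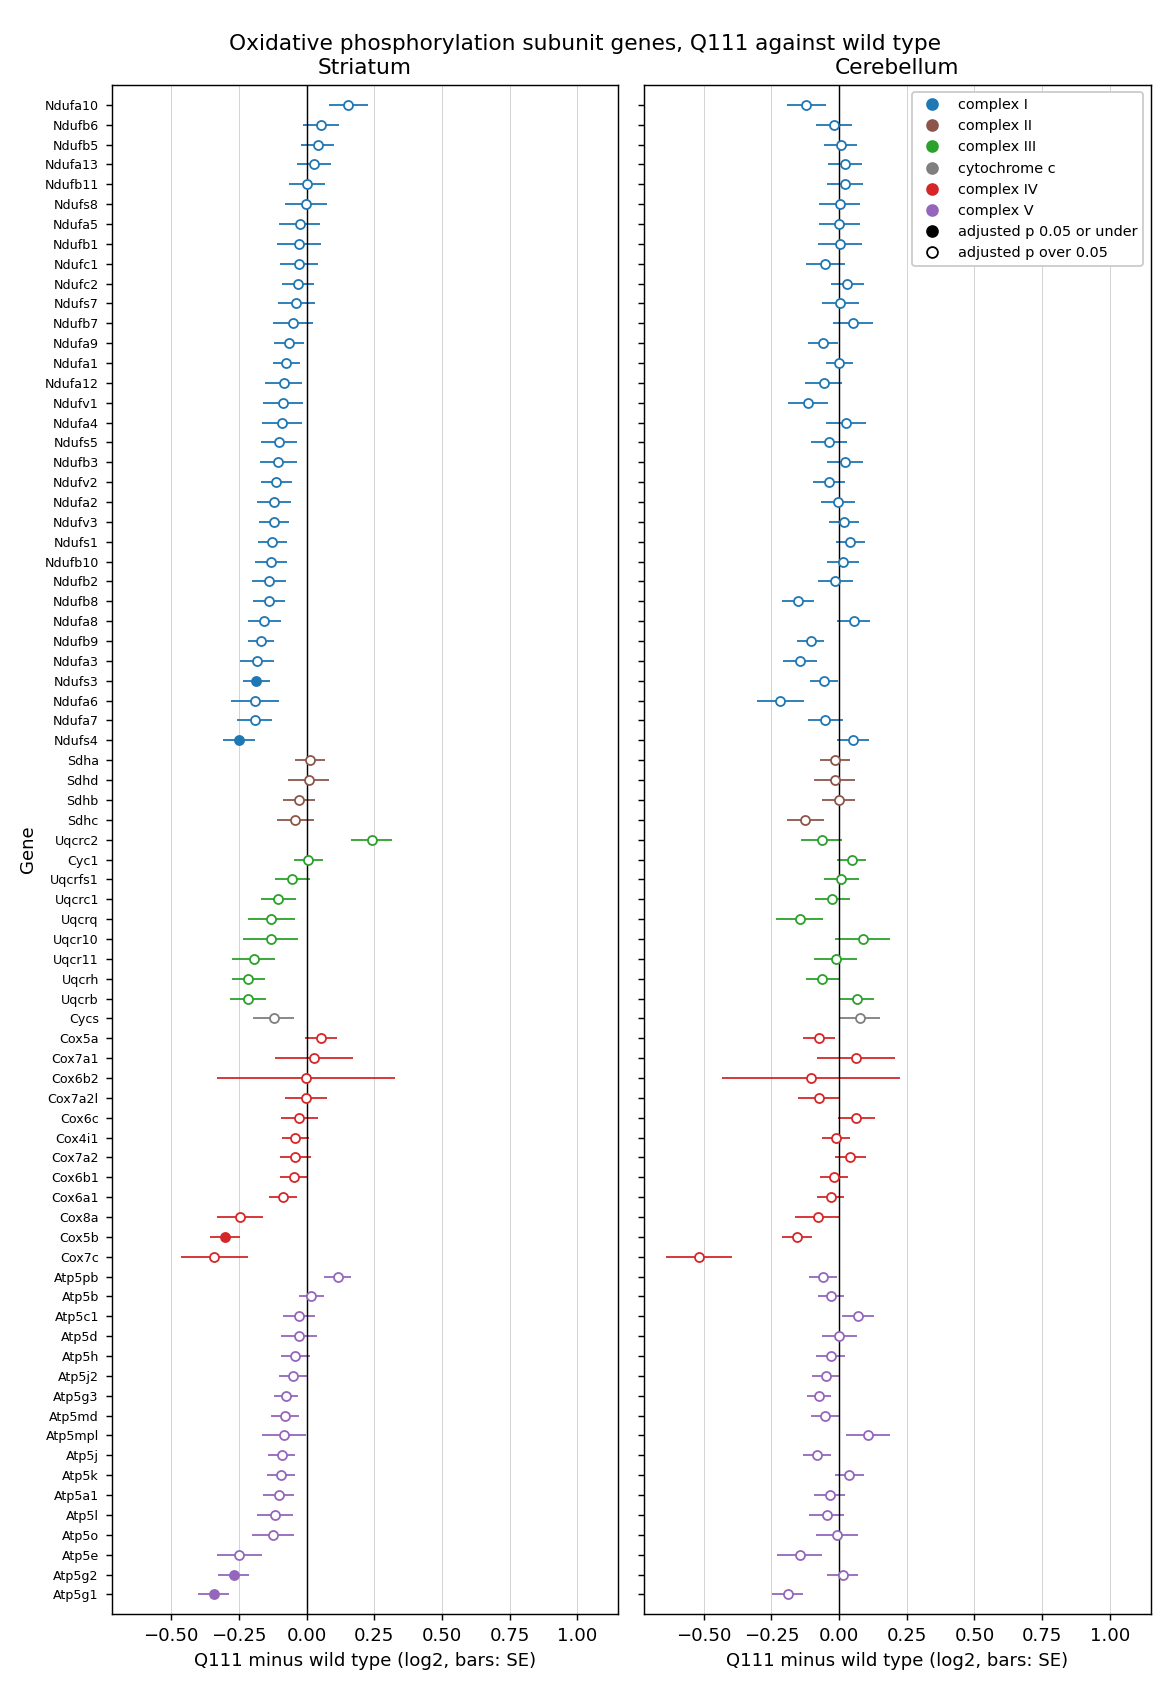
Log2 difference of Q111 minus wild type (x axis; bars are SE of the fit, 6 arrays per group) for each of the 76 subunit genes (y axis), in striatum on the left and cerebellum on the right, coloured by complex, with filled points for an adjusted p of 0.05 or under. In striatum 63 points lie left of 0 and 5 are filled; in cerebellum 46 lie left of 0 (13 with median centring) and none is filled.

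Complex V held the largest fall. Atp5g1 is one of 3 genes that encode the same mature subunit c, which forms the rotating ring of the ATP synthase in the membrane. Its lowest, median and highest values were 11.23, 11.41 and 11.47 log2 in Q111 striatum, and 11.59, 11.71 and 11.91 in wild-type striatum. Every Q111 array lay below every wild-type array. The Q111 mean was 11.38 ± 0.10 and the wild-type mean 11.72 ± 0.11 (SD over 6 arrays), a log2 difference of -0.34 (SE 0.06, limma adjusted p = 0.00269), or 0.789 of the wild-type level.

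The second subunit c gene, Atp5g2, also fell. It ran from 10.27 through a median of 10.43 to 10.49 in Q111 striatum, and from 10.62 through 10.68 to 10.72 in wild-type striatum, again with no overlap. Its log2 difference was -0.27 (SE 0.06, limma adjusted p = 0.0155). A dim second probe set of Atp5g2, with a mean of 3.82 in striatum, gave -0.02, and with the mean of both probe sets Atp5g2 lost its call (-0.15, adjusted p = 0.134). The third, Atp5g3, did not pass the test: it ran from 13.15 to 13.31 (median 13.21) in Q111 and from 13.24 to 13.34 (median 13.29) in wild type, a difference of -0.08 (SE 0.04, adjusted p = 0.363).

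The other 15 genes of complex V did not pass the test. Atp5e, a subunit of the stalk in the catalytic F1 part, differed by -0.25 (SE 0.08, adjusted p = 0.101), with 10.24 to 10.67 in Q111 and 10.60 to 10.84 in wild type, so that the groups overlapped. The 5 F1 genes had a median difference of -0.03 and the 12 other genes of the complex one of -0.09. Atp5pb, subunit b of the outer stalk, had the largest difference upward at 0.12 (SE 0.05, adjusted p = 0.21). It ran from 12.46 to 12.61 in Q111 and from 12.31 to 12.53 in wild type. Its second probe set, with a striatal mean of 11.26, had the opposite sign at -0.08 (adjusted p = 0.493). Of the 17 genes 15 had a lower mean in Q111, and their median difference was -0.08.

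In complex IV, cytochrome c oxidase, which hands electrons to oxygen, Cox5b was the only gene that fell. Cox5b is a nuclear subunit that packs against the catalytic core. It read 12.53, 12.56 and 12.67 (lowest, median, highest) in Q111 striatum, and 12.78, 12.89 and 12.97 in wild-type striatum. No Q111 array reached the lowest wild-type array. Its log2 difference was -0.30 (SE 0.06, limma adjusted p = 0.00536), the mean being 12.58 ± 0.05 for Q111 and 12.88 ± 0.07 for wild type (SD over 6 arrays). The 3 other kept probe sets of Cox5b also fell, by 0.38, 0.25 and 0.28 log2 (adjusted p = 0.00322, 0.0155 and 0.0142); probe sets of one gene share their RNA and are not replicates.

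The other 11 genes of complex IV did not pass the test, and 9 of them had a lower mean in Q111 striatum. Cox7c differed by -0.34 (SE 0.12, adjusted p = 0.125), but its probe set was dim, with 3.46 to 3.81 in Q111 and 3.77 to 4.37 in wild type, around the minimum of 4. A still dimmer second probe set gave 0.19. Cox8a, whose product is one of the smallest subunits, averaged 11.66 ± 0.19 in Q111 and 11.91 ± 0.08 in wild type (-0.25, SE 0.08, adjusted p = 0.106). Cox5a, the partner of Cox5b by name though a different protein, gave 0.05 (SE 0.06), with 12.93 to 13.23 in Q111 and 12.94 to 13.17 in wild type. Its other kept probe sets gave 0.045 and -0.142 (adjusted p = 0.686 and 0.225). Cox4i1, Cox6a1, Cox6b1, Cox6c, Cox7a2 and Cox7a2l lay between -0.09 and -0.002. The median over complex IV was -0.04.

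Complex I, which oxidises NADH, had 2 genes that fell. Ndufs4 encodes an accessory subunit whose loss causes Leigh syndrome in humans and a fatal brain disease in mice. It read 9.52, 9.63 and 9.79 (lowest, median, highest) in Q111 striatum and 9.79, 9.90 and 10.00 in wild-type striatum, so the groups met at their edges without overlapping. Its difference was -0.25 (SE 0.06, limma adjusted p = 0.0266). A pair of dimmer Ndufs4 probe sets gave 0.13 and -0.05, and with the mean of a gene's probe sets Ndufs4 lost its call (-0.06, adjusted p = 0.665). It also lost it with median centring (adjusted p = 0.0963), with each tissue fitted alone (0.0705), and in 5 of the 24 fits that left out 1 array (up to 0.0688).

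Ndufs3, a core subunit of the arm that reaches into the matrix, ran from 11.04 through a median of 11.17 to 11.20 in Q111 striatum, and from 11.25 through 11.34 to 11.39 in wild-type striatum. The groups did not overlap. Its difference of -0.19 (SE 0.05) was just past the threshold (limma adjusted p = 0.0497) and past it in 3 of 24 fits that each left out 1 array, with an adjusted p of up to 0.118. Of the 33 genes of complex I, 28 had a lower mean in Q111 striatum, among them all 6 core subunit genes, and the median was -0.09. Ndufb9, an accessory subunit, was the sixth gene with no overlap, or 7.89% of the 76, all lower in Q111, beside 1.67% of all probe sets. It stood at 12.20 to 12.36 in Q111 and 12.41 to 12.52 in wild type, and missed the threshold (-0.17, SE 0.05, adjusted p = 0.0635). A second Ndufb9 probe set, with a striatal mean of 12.07, gave -0.09 (adjusted p = 0.5). Ndufa10 stood highest at 0.15 (SE 0.07, adjusted p = 0.243), with 10.69 to 10.95 in Q111 and 10.54 to 10.99 in wild type. A dimmer second probe set of Ndufa10 gave -0.02. Ndufa4, named for complex I but since found with complex IV, gave -0.09 (SE 0.08).

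**Figure D2:**
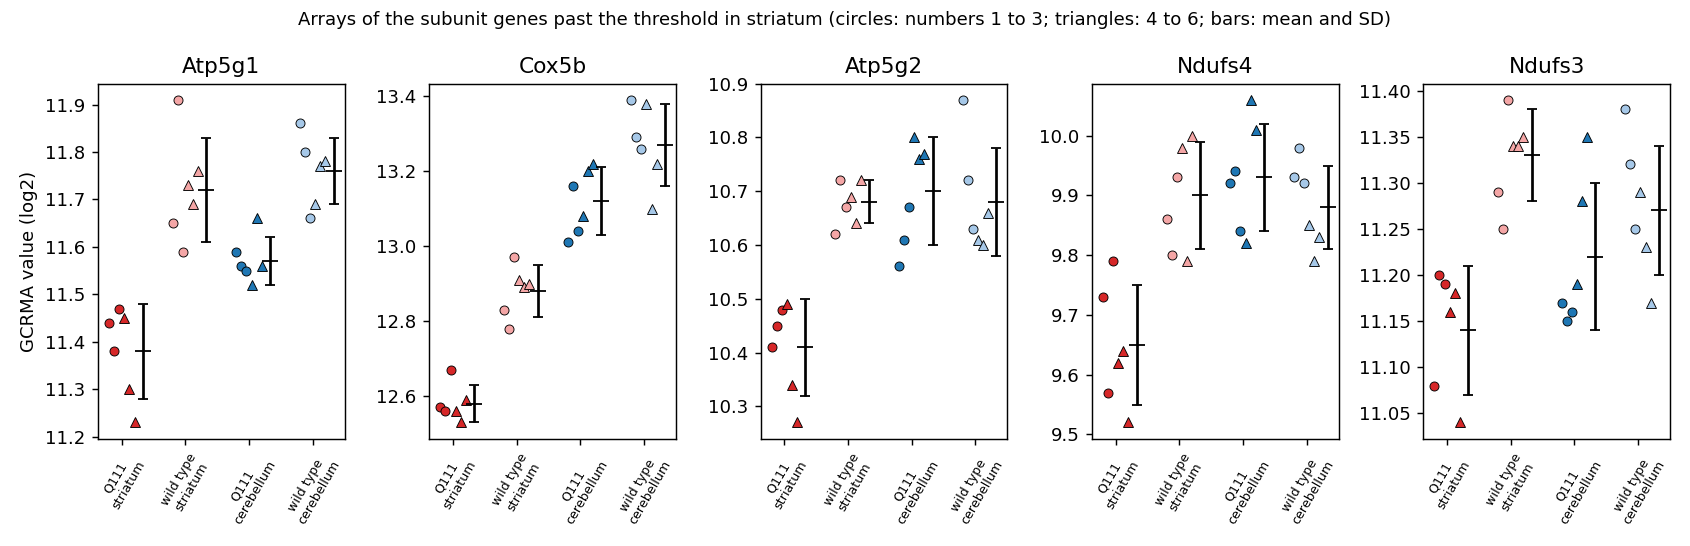
GCRMA values (log2, y axes start above 0) of the 5 subunit genes that fell in Q111 striatum, one panel per gene, with 6 arrays in each of the 4 groups on the x axis; circles are replicate numbers 1 to 3, triangles 4 to 6, and bars are mean and SD. In striatum each Q111 array lies at or below the lowest wild-type array in all 5 panels, and in cerebellum only Atp5g1 separates the groups.

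In complex III, which passes electrons from ubiquinol to cytochrome c, no gene passed the test, and 7 of 9 had a lower mean in Q111 striatum (median -0.13). The largest differences had opposite signs. Uqcrc2, a large core protein on the matrix side, read 12.19, 12.46 and 12.51 (lowest, median, highest) in Q111 and 11.99, 12.19 and 12.28 in wild type. Its difference was 0.24 (SE 0.08, adjusted p = 0.0835), the highest of the 76, and its second probe set gave 0.18 (adjusted p = 0.151). Uqcrb, which lies near the ubiquinone site, read 12.54, 12.59 and 12.79 in Q111 and 12.72, 12.87 and 12.96 in wild type (-0.22, SE 0.07, adjusted p = 0.0684). Uqcrh, the hinge protein that aids contact of cytochrome c1 with cytochrome c, gave -0.22 (SE 0.06, adjusted p = 0.0548). Second probe sets gave -0.20 for Uqcrb (adjusted p = 0.11) and -0.09 for Uqcrh (adjusted p = 0.44).

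Complex II, the citric acid cycle enzyme succinate dehydrogenase, stayed near 0 in the probe sets that stand for its genes. Its flavoprotein gene Sdha ran from 11.48 to 11.75 in Q111 and from 11.51 to 11.64 in wild type. The 4 differences were 0.01 for Sdha (SE 0.06), -0.03 for the iron-sulfur subunit Sdhb (SE 0.06), -0.04 for Sdhc (SE 0.07) and 0.01 for Sdhd (SE 0.08), the last pair being the membrane anchors. All groups overlapped, and the lowest adjusted p of the 4 was 0.799. Second probe sets gave -0.08 for Sdha, 0.01 for Sdhc and 0.16 for Sdhd (adjusted p = 0.44, 0.961 and 0.296). In replicate numbers 1 to 3 and 4 to 6, Sdhd gave 0.17 and -0.15, and Sdhc gave -0.14 and 0.05. Sdha gave -0.05 and 0.07, and Sdhb 0.02 and -0.08. Cycs, the gene of cytochrome c, gave -0.12 (SE 0.08, adjusted p = 0.408), with 11.93 to 12.31 in Q111 and 12.02 to 12.41 in wild type.

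The shift differed between replicate numbers 1 to 3 and 4 to 6, though this was not tested. Among replicate numbers 1 to 3 the median difference of the 76 genes in striatum was -0.01 and 41 were lower in Q111; among numbers 4 to 6 it was -0.16 and 67 were lower. The medians over all probe sets were -0.01 and -0.05. No label names these number sets as batches. In all, 37 genes were lower in both sets and 5 higher in both. The 5 genes that fell were lower in both, with -0.28 and -0.40 for Atp5g1 and -0.26 and -0.34 for Cox5b. They were called on these same arrays, and their striatal groups did not overlap, so any split of the arrays had to give this. With 3 arrays a group no subunit gene passed the test in either set. With the number set as a term in the model Ndufs3 lost its call (adjusted p = 0.0859), while Ndufs4 stayed at 0.0493.

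**Figure D3:**
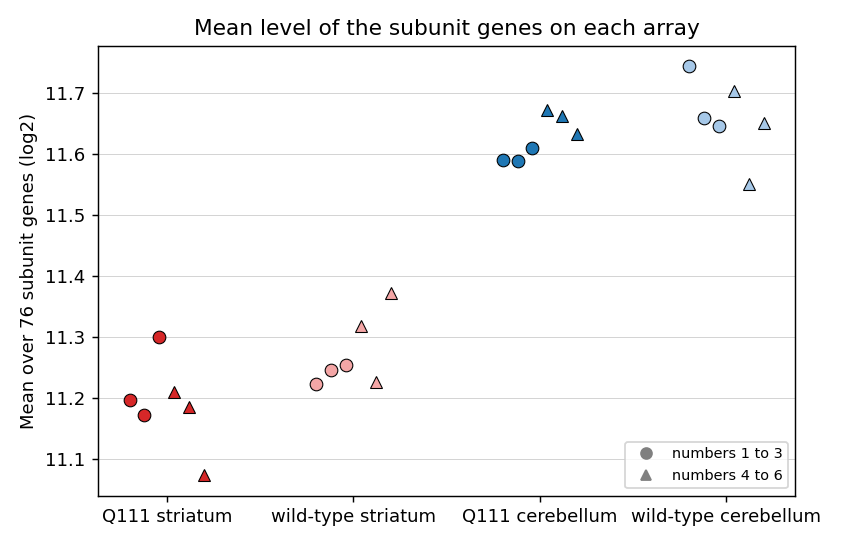
Mean over the 76 subunit genes on each array (y axis, log2, starting above 0) for the 4 groups of 6 arrays on the x axis; circles are replicate numbers 1 to 3 and triangles 4 to 6. Q111 striatum runs from 11.073 to 11.300 and wild-type striatum from 11.223 to 11.372, with overlap, and all cerebellum arrays lie above all striatum arrays.

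The mean over the 76 genes on an array ran from 11.073 to 11.300 in Q111 striatum and from 11.223 to 11.372 in wild-type striatum. The lowest was that of Q111 replicate 6, whose oligodendrocyte mean (10.91) was the lowest in its group but whose striatal projection neuron mean (11.34) was not. The highest was that of wild-type replicate 6, whose striatal projection neuron mean (10.84) was the lowest in its group but whose oligodendrocyte mean (11.46) was not. No link between marker means and subunit gene means was tested. Without one array at a time, the median difference of the subunit genes in striatum lay between -0.11 and -0.07. After the group means were taken off, subunit genes varied together over the 24 arrays, with a mean correlation between pairs of 0.281, against 0.032 for all kept probe sets. It was 0.365 within complex I, 0.270 within V, 0.234 within IV, 0.217 within III and 0.037 within the 4 genes of II. Genes on the same array share its RNA and its processing, so these values describe variation between arrays and carry no test.

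In cerebellum no subunit gene passed the test between genotypes in either direction, beside 0.362% of all probe sets called lower and 0.0964% called higher. At an unadjusted p under 0.05, 7 subunit genes and 2867 probe sets differed. Of the 76 genes 46, or 60.5%, had a lower mean in Q111, against 65.5% of all probe sets, and the medians were -0.02 and -0.05. With median centring 13 of the 76 were lower and the median was 0.08, so no direction can be given for the group.

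By complex the cerebellar medians were 0.001 for I, -0.02 for II, -0.01 for III, -0.05 for IV and -0.03 for V. Atp5g1 came closest to its striatal pattern. It ran from 11.52 to 11.66 in Q111 cerebellum and from 11.66 to 11.86 in wild-type cerebellum, the only subunit gene whose groups did not overlap there (1.32% of the 76, beside 0.945% of all probe sets in the same direction), with a difference of -0.19 (SE 0.06, adjusted p = 0.138). Cox5b gave -0.15 (SE 0.06, adjusted p = 0.213), with 13.01 to 13.22 in Q111 and 13.10 to 13.39 in wild type. Atp5g2, Ndufs4 and Ndufs3 gave 0.01, 0.05 and -0.06, and their groups overlapped.

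Cox7c had the largest cerebellar difference, at -0.52 (SE 0.12, adjusted p = 0.0552). It read 4.48, 4.86 and 5.30 (lowest, median, highest) in Q111 cerebellum and 5.10, 5.45 and 5.69 in wild type. It passed the threshold with array weights and with the mean of a gene's probe sets (-0.50). It also passed without wild-type striatum replicate 6, wild-type cerebellum replicate 2, or Q111 cerebellum replicate 4 or 6. A second, dimmer Cox7c probe set, with a cerebellar mean of 4.26, gave -0.48 in cerebellum (adjusted p = 0.0782). Ndufa6, an accessory subunit of complex I, gave -0.22 (SE 0.09, adjusted p = 0.266), at 10.59 to 10.80 in Q111 and 10.69 to 11.08 in wild type. The largest differences upward, 0.11 for Atp5mpl and 0.09 for Uqcr10, a small subunit of complex III, were within 1.5 times their SE.

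The genotype differences in striatum and cerebellum were set against each other. No subunit gene passed the test of this interaction, beside 0.0868% of all probe sets called, and 8 had an unadjusted p under 0.05 against 2100 probe sets. The median was -0.05 for the subunit genes and 0.02 for all probe sets, and 57 of 76 had a more negative difference in striatum. This depended on the replicate numbers. In numbers 1 to 3 the median genotype difference was -0.01 in striatum (41 genes lower) and -0.08 in cerebellum (64 lower). In numbers 4 to 6 it was -0.16 in striatum (67 lower) and 0.03 in cerebellum (33 lower). The striatal median was thus the lower one only in numbers 4 to 6, which was not tested. The lowest adjusted p were 0.142 for Ndufs4 (-0.30, SE 0.08), 0.164 for Atp5g2 (-0.28, SE 0.08), 0.234 for Uqcrb (-0.28) and 0.296 for Uqcrc2 (0.31). The falls of Atp5g1 and Cox5b in striatum were therefore not shown to differ from their values in cerebellum (interaction -0.15 each, adjusted p = 0.544 and 0.55).

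The tissue comparison was larger than that of genotype. In wild type, 55 of the 76 subunit genes were lower in striatum than in cerebellum and 1 was higher, or 72.4% and 1.32%, beside 41.2% and 30.6% of all probe sets. In Q111, 67 were lower and 2 higher, or 88.2% and 2.63%, beside 40.1% and 31.3%. Both counts hold 2 genes, Cox6b2 and Cox7c, that reached the minimum only in cerebellum and so had to differ; without them 65 of 74 were lower in Q111 and 53 of 74 in wild type. The median differences, striatum minus cerebellum, were -0.36 in Q111 and -0.32 in wild type over the 76 genes, against -0.07 and -0.09 over all probe sets. Among the 2332 probe sets with a mean of at least 10, the range of 70 of the subunit genes and a comparison added after seeing the data, the wild-type medians were -0.32 for the 70 and -0.07 for all.

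The lowest value on an array was at least 0.36 in striatum and at most -0.66 in cerebellum, and the labels do not say that both tissues were normalised together, so the size of a tissue difference is less certain than that of a genotype difference. No level of one gene is set against that of another here, since probe sets differ in brightness.

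Complex III held the clearest tissue difference. Cyc1, the gene of cytochrome c1, ran from 10.95 to 11.20 in Q111 striatum and from 11.92 to 12.06 in Q111 cerebellum, and from 10.96 to 11.09 in wild-type striatum against 11.89 to 12.10 in wild-type cerebellum. The gap between the tissues was several times the spread within them. Its difference was -0.89 in wild type (SE 0.05, limma adjusted p = 2.71e-13), or 0.540 of the cerebellar level. Uqcrc2 differed by -0.43 in Q111 and -0.73 in wild type, and its range was 11.99 to 12.28 in wild-type striatum and 12.74 to 13.04 in wild-type cerebellum. In wild type 6 of the 9 genes were lower and in Q111 all 9.

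In complex I, 25 of 33 genes were lower in wild-type striatum (median -0.35) and 29 in Q111 striatum (median -0.36). Ndufa4 differed by -0.86 in Q111 and -0.74 in wild type (adjusted p = 3.23e-10 and 4.28e-09). Ndufv1, which binds NADH and the flavin, ran from 10.24 to 10.41 in wild-type striatum and from 10.93 to 11.14 in wild-type cerebellum, a difference of -0.73 (SE 0.07). Ndufb1 was the single gene higher in striatum, by 0.28 in wild type (adjusted p = 0.00355), from a dim probe set that read 4.43 to 4.97 in wild-type striatum and 4.28 to 4.64 in wild-type cerebellum. The 2 complex I genes that fell in Q111 striatum did not pass between tissues in wild type, at 0.05 for Ndufs3 and 0.01 for Ndufs4 (SE 0.05 and 0.06).

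Complex IV held the widest range, at Cox6b2, Cox7a1 and Cox7c (-1.42 in wild type). Of these, Cox6b2 and Cox7c reached the minimum only in cerebellum, so that they had to differ in this direction. Cox6b2, known as the testis form of subunit VIb, read 2.62 to 4.74 in Q111 striatum and 6.48 to 7.13 in Q111 cerebellum, and 2.68 to 4.23 in wild-type striatum against 6.40 to 7.48 in wild-type cerebellum. With values under 4 set to 4, which bounds its difference from above, it was -2.57 in Q111 and -2.79 in wild type. Cox7a1, known as the heart and skeletal muscle form of subunit VIIa, ran from 4.73 to 5.39 in wild-type striatum and from 6.51 to 7.14 in wild-type cerebellum (-1.58, SE 0.14, adjusted p = 6.12e-10). The form found in most tissues, Cox7a2, differed by -0.45 (SE 0.06), and Cox7a2l, whose product helps to join complexes III and IV, by 0.12 (SE 0.08, adjusted p = 0.163). Cox6c gave 0.04 (SE 0.07), with 12.62 to 12.99 in wild-type striatum and 12.65 to 12.93 in wild-type cerebellum. Of the 10 genes that reached the minimum in both tissues, 8 were lower in wild-type striatum.

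In complex V, 16 of 17 genes were lower in Q111 striatum than in Q111 cerebellum and 11 in wild type. Atp5e and Atp5h, a subunit of the outer stalk, had the largest differences in wild type, at -0.72 (SE 0.08) and -0.61 (SE 0.05). Atp5h ran from 13.11 to 13.25 in wild-type striatum and from 13.70 to 13.86 in wild-type cerebellum. The subunit c genes differed little in wild type, with -0.04 for Atp5g1, -0.004 for Atp5g2 and -0.18 for Atp5g3, of which only the last passed (adjusted p = 8.75e-04). In Q111 all 3 passed, at -0.19, -0.29 and -0.18. The wild-type and Q111 tissue contrasts share arrays with the genotype contrasts, so their difference is the interaction given above and no separate result.

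Complex II was split, with Sdha and Sdhd lower in striatum (-0.33 and -0.61 in wild type) and Sdhb and Sdhc not past the threshold (-0.04 and -0.10). Sdhd ran from 9.20 to 9.55 in wild-type striatum and from 9.76 to 10.06 in wild-type cerebellum. Cycs was lower in striatum, at -0.41 in Q111 and -0.21 in wild type (adjusted p = 4.13e-05 and 0.0165). Of the 74 genes without Cox6b2 and Cox7c, every striatal array lay below every cerebellar array for 55 in Q111 and 43 in wild type, beside 28.5% and 30% of all probe sets.

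**Figure D4:**
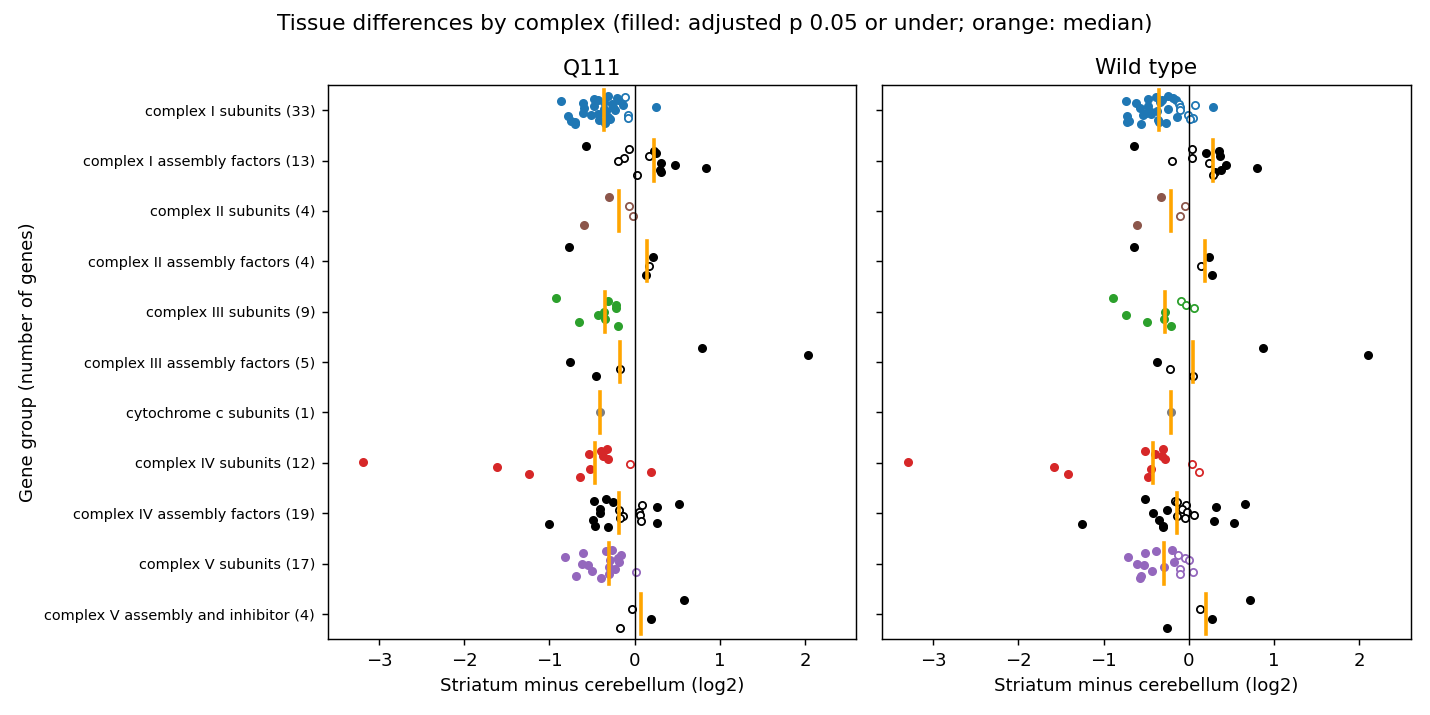
Log2 difference of striatum minus cerebellum (x axis) in Q111 on the left and wild type on the right, one point per gene, for the subunit genes of each complex in colour and the assembly factors of that complex in black (y axis, number of genes in brackets); filled points have an adjusted p of 0.05 or under and orange bars are medians. The subunit medians lie left of 0 in every complex, and the assembly factor medians in wild type lie right of 0 except for complex IV.

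Assembly factors, which build the complexes without staying in them, differed between tissues in both directions, and they were not tested against the subunit genes. Beside the counts below, 40.1% of all probe sets were called lower and 31.3% higher in Q111 striatum, and 41.2% and 30.6% in wild-type striatum. Of 13 measured complex I assembly factors, 7 were higher in striatum and 1 lower in each genotype, with medians of 0.22 in Q111 and 0.28 in wild type. Nubpl, which delivers iron-sulfur clusters, was higher in wild-type striatum by 0.80 (SE 0.11, adjusted p = 7.11e-07). For complex III, Ttc19 was higher by 2.11 (SE 0.08, adjusted p = 2.3e-17) and Bcs1l, which inserts the Rieske protein, by 0.87 (SE 0.12), while Uqcc1 was lower (-0.38), all in wild type; over the 5 measured, the median was -0.17 in Q111 and 0.05 in wild type. For complex IV, 9 of 19 were lower and 3 higher in Q111 (median -0.18), and 7 lower and 4 higher in wild type (median -0.14). In wild type Sco2, a copper chaperone, was lower (-1.25, SE 0.11, adjusted p = 1.4e-10). Also in wild type, Atpaf1, which helps to assemble F1, and Atpif1, the inhibitor of the ATP synthase, were higher by 0.72 and 0.27 and Tmem70, an assembly factor of the ATP synthase, was lower (-0.26, adjusted p = 0.00503), and for complex II 2 of 4 were higher and Sdhaf1 lower (-0.65). Between genotypes none of these assembly factors passed the test in either tissue.

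A pair of subunit genes that the symbol rule leaves out was also on the array. Ndufab1, the acyl carrier protein of complex I, was lower in wild-type striatum (-0.35, adjusted p = 1.15e-04). ND5, a subunit of complex I encoded in mitochondrial DNA, was higher in wild-type striatum, by 0.29 (adjusted p = 0.00143), with means of 13.92 in wild-type striatum and 13.63 in wild-type cerebellum. Neither passed between genotypes, with -0.05 and -0.01 in striatum.

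The other probe sets of the same genes gave a partial check on the choice of 1 probe set per gene. Of 66 other kept probe sets, 52 were lower in Q111 striatum and 4 fell, of which 3 belong to Cox5b and 1 to Ndufa7 (-0.31, adjusted p = 0.0299). The probe set that stands for Ndufa7 gave -0.19 (adjusted p = 0.105). Between tissues, 61 of the 66 were lower in wild-type striatum than in wild-type cerebellum, 50 of them past the threshold. In striatum 47 of the 66 had the sign of the probe set that stands for their gene. Many subunit genes have processed pseudogenes of near-identical sequence, and a probe set cannot separate their RNA.

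Just inside the minimum were Ndufb1 and Cox7c, with striatal means of 4.68 and 3.83 and cerebellar means of 4.41 and 5.16. The next lowest, Cox7a1 and Cox6b2, lay further from it, with cerebellar means of 6.76 and 6.83. Just outside were Cox8b, with means of 3.38 and 3.36, and Cox7b2, with 2.55 and 3.02, followed by Cox6a2, Cox4i2, Ndufb4, Cox8c and Ndufa4l2, none above 2.46. Cox6a2 and Cox8b are known as heart and skeletal muscle forms, and Cox4i2 as the form of lung. A dim probe set does not show that a gene is silent.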

How the data were processed

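Per the labels' protocols, Trizol extraction and a Qiagen column gave the total RNA, which was labelled with biotin. The authors deposited 1 table of GCRMA values for 24 arrays, per the submitters' processing notes (version not stated there). GCRMA corrects background by probe sequence, normalises arrays and sums probes. The deposited values (-0.77 to 16.33) were read as log2, a base that no source states. Of 45101 probe sets, 64 controls were left out, and 20738 with a mean of at least 4 in either tissue were kept (46.0%). Genes came from a platform annotation of 2016, and the probe set with the highest mean stood for each.

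All arrays entered 1 fit with a mean per group, in limma 3.58.1 (R 4.3.3), with 20 residual and 3.22 prior degrees of freedom and Benjamini-Hochberg adjustment. Every adjusted p is limma's. The fit was tested on simulated data with noise drawn independently for each probe set. That test required no recovery of changes as small as those of the subunit genes between genotypes. Named genes were those past the threshold between genotypes, the largest changes per complex, the largest tissue differences and the isoform families; others were chosen after their values were seen. The subunit genes, lists and tests were chosen with earlier results of these data known. After the group means were taken off, same-numbered samples of the 2 genotypes or of the 2 tissues correlated at -0.423 to 0.183 over the kept probe sets. Numbers were therefore not treated as pairs. The number of arrays limits the precision. Alternatives covered the filter, normalization, variance prior, weights, the replicate number or number set as a term, and leaving out each array.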

Additional observations from a re-analysis of the deposited data

Results flagged for a closer look

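Among the 37 named genes and the mean over the 76 subunit genes, 152 sets of 6 arrays were searched for an array that stood apart from its group by more than Dixon's critical value, which chance passes in about 1 of 20 groups, and 6 sets held one. Cyc1 had such an array in wild-type striatum, where replicate 5 read 10.96 log2 and the others 11.07 to 11.09, and in wild-type cerebellum, where replicate 4 read 12.10 and the others 11.89 to 11.96. In Q111 cerebellum, Ndufa4 read 12.61 in replicate 1, against 12.83 to 12.95 in the others. Also in Q111 cerebellum, Ndufb1 read 4.68 in replicate 4, against 4.29 to 4.39, and Uqcrq read 11.03 in replicate 5, against 10.72 to 10.80. In Q111 striatum, Sdhc read 11.13 in replicate 4, against 10.95 to 11.02. None of these genes passed the test between genotypes in either tissue.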

How the results depend on the processing

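The count of 5 subunit genes that fell in Q111 striatum was 3 with median centring, 8 with a trend in the variance prior (adding Ndufb9, Uqcrb and Uqcrh), 3 with each tissue fitted alone, 0 with replicate numbers 1 to 3 only and 0 with numbers 4 to 6 only, where there are fewer arrays. With the replicate block it was 1, Atp5g1 (adjusted p = 0.0408), though no label says that the numbers pair samples. Leaving out 1 array gave 3 to 6, with 3 without wild-type striatum replicate 3, 4 or 6 or Q111 striatum replicate 2 or 6; Atp5g1, Atp5g2 and Cox5b passed in all 24 such fits, Ndufs4 in 19 and Ndufs3 in 3. With the mean of a gene's probe sets the count stayed at 5, but Ndufa7 and Uqcrb passed in place of Atp5g2 and Ndufs4. The median striatal difference was -0.011 with numbers 1 to 3 and -0.160 with numbers 4 to 6. In cerebellum 1 gene fell with array weights or with the mean of a gene's probe sets, leaving out 1 array gave 0 to 1, and the median was 0.083 with median centring. Genes higher in wild-type striatum than in wild-type cerebellum numbered 2 with quantile normalization, median centring or the mean of probe sets, 0 with numbers 1 to 3 only and 1 to 2 without 1 array; in Q111 they numbered 1 with numbers 1 to 3 only, 0 with 4 to 6 only and 1 to 2 without 1 array. The causes were not tested. The count of 0 rises between genotypes, the count of 0 interactions and the direction of the median tissue difference in wild type held under each alternative run. Of all probe sets past the threshold in striatum, 70.9% were lower as deposited, 51.7% with quantile normalization and 42.7% with median centring, and in cerebellum 78.9%, 46.4% and 28%. Over all probe sets the replicate block gave 106 lower and 47 higher in striatum, against 422 and 173.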
